A study of Mus musculus with 63 samples.

Results

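Glucocorticoid-induced genes are transcribed when a glucocorticoid hormone binds its receptor, which then enters the nucleus and binds DNA. The 8 such genes described here were listed by name (Tsc22d3, Fkbp5, Per1, Klf9, Sgk1, Zbtb16, Pik3ip1 and Txnip), and each was read from the probe set annotated to that gene alone, or, had there been several, from the brightest of them over all arrays. All 8 were measured, out of 19938 genes on the array. No filter on low values was applied. In lymphoid cells these hormones act on survival and metabolism, and several of the 8 genes also answer to other signals. Txnip is in addition a target of the glucose-sensing factor MondoA, Pik3ip1 and Txnip of FOXO factors, and Per1 of the circadian clock and of cAMP signalling.

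The study profiled lymphomas of Eµ-myc mice, in which an immunoglobulin heavy-chain enhancer drives a Myc transgene in the B-cell lineage and B-cell lymphomas arise, on 63 Affymetrix arrays. Of these, 31 were labelled CTX 4h, taken 4 h after cyclophosphamide, an alkylating drug, and 32 were labelled native. All carry the transgene on a C57BL/6 background, and the lymph node cells were not purified, so each array holds whatever other cells the node held. For 29 of the CTX 4h arrays a single dose of 300 mg/kg, given i.p., is stated, and for the other 2 no dose. No arm given a glucocorticoid, and no hormone measurement, was used here. The text of the series speaks of untreated samples alone, so the treatment rests on the array labels. These do not settle whether native and CTX 4h lymphomas grew in the same kind of host, and the drug is described as given to transplant recipients. No label states that arrays came from separate mice, so p-values measure only the spread between these samples. In bulk RNA, fewer cells of a type and less RNA per cell cannot be told apart.

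Labelling started from 300 ng of RNA on 17 native arrays and 2 CTX 4h arrays, and from 100 ng on the remaining 15 and 29. The 100 ng arrays fall into a 1-series, an 8-series and a 9-series by the first digit of the lymphoma number, with 6, 9 and 14 CTX 4h arrays and 7, 3 and 5 native arrays. These series and the 300 ng arrays are the 4 sets used below. All levels are log2 values. Array medians lay between 6.53 and 7.11. The mean of the 9 measured B-cell markers ran from 9.44 to 12.04 over the arrays. Native replicates 8 and 19 stood apart, with mean correlations to the other arrays of 0.904 and 0.929 against at least 0.938 elsewhere, and with the lowest Myc levels of all arrays (11.39 and 10.64). Results that rest on these arrays are given with and without them.

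The promoters of the members show which sequences lie just before their start sites, and members whose levels moved together across arrays are considered further on. RefSeq windows (GRCm38.p6) of the 250 bases before each start were found for 7 of the 8 members, 15 windows in all; Zbtb16 had none in the table. Below, capitals mark matches on either strand to the palindromic glucocorticoid response element (GNACA and TGTNC separated by NNN, any 3 bases), its half-site TGTTCT, the E-box CACGTG bound by clock and MYC-family factors, the CRE half-site TGACG or the forkhead motif TGTTTAC. Matches of different motifs can overlap, as the half-sites and the longer element do in Sgk1. The first 2 sequences are shown because they hold the 13-letter element, the next 2 because they hold an E-box, and the last because Tsc22d3 was the member whose difference passed the test. Tsc22d3 has other windows, and only the one shown holds a glucocorticoid half-site. The window before the start at 140548571 holds TGACG alone, and that before 140542668 holds no match.
Sgk1, chr10:21993640-21993889, plus strand: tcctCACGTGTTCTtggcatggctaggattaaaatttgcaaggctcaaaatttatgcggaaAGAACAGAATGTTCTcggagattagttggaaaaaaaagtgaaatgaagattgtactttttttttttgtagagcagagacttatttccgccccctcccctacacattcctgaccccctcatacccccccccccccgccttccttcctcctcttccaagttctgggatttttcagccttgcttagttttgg
Txnip, chr3:96557707-96557956, plus strand: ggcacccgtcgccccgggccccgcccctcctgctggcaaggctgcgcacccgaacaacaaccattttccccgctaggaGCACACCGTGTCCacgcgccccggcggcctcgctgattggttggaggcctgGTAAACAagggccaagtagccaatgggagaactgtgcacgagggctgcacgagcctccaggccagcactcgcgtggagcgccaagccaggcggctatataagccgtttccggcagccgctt
Fkbp5, chr17:28486150-28486399, minus strand: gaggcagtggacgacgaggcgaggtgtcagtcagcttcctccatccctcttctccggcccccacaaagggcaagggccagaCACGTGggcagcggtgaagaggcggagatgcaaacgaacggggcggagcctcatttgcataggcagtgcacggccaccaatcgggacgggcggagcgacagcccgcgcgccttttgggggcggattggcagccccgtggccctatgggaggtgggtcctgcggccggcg
Per1, chr11:69098699-69098948, plus strand: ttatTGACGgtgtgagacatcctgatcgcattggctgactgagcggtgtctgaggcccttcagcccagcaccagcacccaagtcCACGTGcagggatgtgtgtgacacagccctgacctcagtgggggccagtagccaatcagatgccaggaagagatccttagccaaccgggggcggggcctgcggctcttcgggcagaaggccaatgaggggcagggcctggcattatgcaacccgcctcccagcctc
Tsc22d3, chrX:140600523-140600772, minus strand: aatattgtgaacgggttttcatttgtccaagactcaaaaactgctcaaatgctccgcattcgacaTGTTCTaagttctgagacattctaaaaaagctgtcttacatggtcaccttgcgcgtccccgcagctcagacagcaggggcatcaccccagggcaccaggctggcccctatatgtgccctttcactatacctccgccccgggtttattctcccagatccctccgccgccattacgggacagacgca

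The 13-letter element was found in 2 of the 15 windows, as GAACAGAATGTTC from 188 to 176 bases before this Sgk1 start and as GCACACCGTGTCC from 172 to 160 bases before the Txnip start. Among all 32851 windows of that length in the table, 127 (0.387%) held it. The half-site stood in 4 of the members' windows, against 16.1% of all windows, and the E-box in 3 (1 each of Sgk1, Fkbp5 and Per1), against 6.02%. The TGACG half-site was in 5 windows, against 17.8%, and the full TGACGTCA in 0, against 1.55%. The forkhead motif stood in the Txnip and Klf9 windows, against 3.17% of all. Some members, Sgk1 above all, have several windows. By gene, the 13-letter element was in 2 of 7 members, against 0.44% of all genes. The half-site was in 2 (Sgk1 and Tsc22d3), against 18.2%, and the E-box in 3, against 6.86%. TGACG was in 4, against 19.8%, TGACGTCA in 0, against 1.77%, and the forkhead motif in 2, against 3.54%. These are matches of letters, not binding sites, and elements farther from the start lie outside the windows.

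The comparison of CTX 4h with native arrays asks whether these genes differed shortly after the drug. Tsc22d3, which encodes the anti-inflammatory leucine zipper protein GILZ, rose by a log2 fold change of 0.53 ± 0.15 (SE; limma with RNA input held, Benjamini-Hochberg adjusted p = 0.0388 over all genes), or 1.44-fold. It was the only member of the 8 to pass, and none fell. Over all genes 281 (1.41%) were higher and 251 (1.26%) lower. All 8 members had a positive log2 fold change, as did 9178 of the 19938 genes, and the members' median was 0.38 against -0.01 for all genes. At an unadjusted p under 0.05, 6 members were higher, against 7.62% of all genes. These 8 values are not independent of each other, since the members moved together across arrays (described further on).

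The call on Tsc22d3 depended on the setting. Its adjusted p ran from 0.00314 to 0.59 over 19 other settings, 9 of which called it. With the 4 sets held its log2 fold change was 0.41 (limma adjusted p = 0.187), and its adjusted p was 0.176 in the 100 ng arrays alone. Leaving out single arrays ended the call for 16 of 63, with adjusted p between 0.0506 and 0.0886. These arrays were native replicates 3, 9, 10, 11, 12, 13, 14 and 15 and CTX 4h replicates 6, 9, 11, 19, 21, 23, 30 and 31. Native replicates 9 to 15 are all 7 native arrays of the 1-series, and the model with RNA input held has no term for series. Mean Tsc22d3 in the 1-series was 9.28 in native and 9.69 in CTX 4h arrays. It was 9.56 and 10.16 in the 8-series and 9.99 and 10.26 in the 9-series. Without native replicate 10, the log2 fold change was 0.46 (adjusted p = 0.0886). All 63 of these fits gave a positive value, from 0.46 to 0.59.

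**Figure D1:**
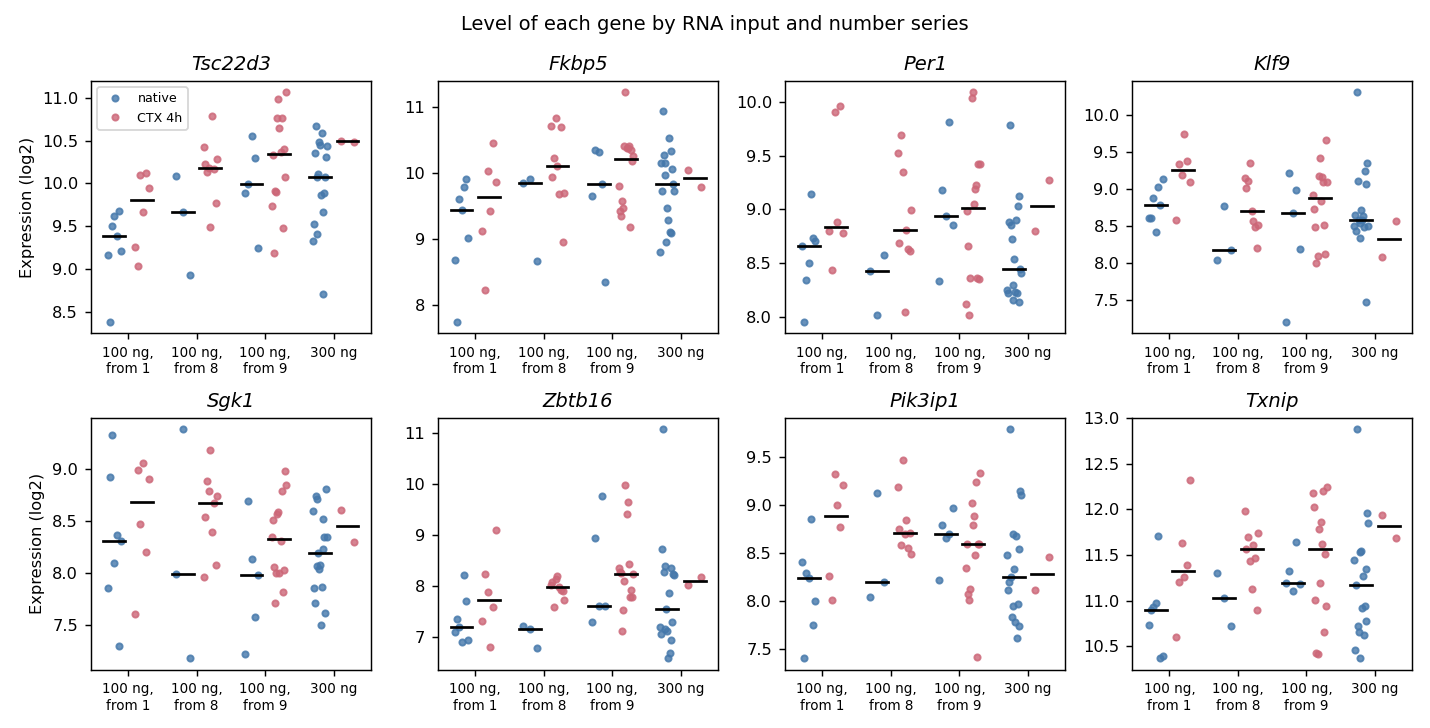
Expression (log2) of each of the 8 genes on every array, in 4 sets by RNA input and first digit of the lymphoma number, with native arrays in blue and CTX 4h arrays in red; black lines are medians. Groups overlap in nearly every panel, and the 8-series Zbtb16 arrays, at 7.58 to 8.20 against 6.79 to 7.20, are the case where they do not.

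Tsc22d3 levels in the 1-series ran from 9.03 to 10.13 (median 9.81) in 6 CTX 4h arrays and from 8.38 to 9.68 (median 9.39) in 7 native arrays. In the 8-series, CTX 4h arrays lay between 9.49 and 10.79 (median 10.18), and the native arrays were at 8.93, 9.67 and 10.09. In the 9-series the range was 9.18 to 11.06 (median 10.35) for CTX 4h, and native arrays were at 9.25, 9.89, 9.99, 10.29 and 10.55. The highest array of each 100 ng series was a CTX 4h array, but these outnumber the native arrays in the 8- and 9-series. In the 9-series the lowest array was also CTX 4h, at 9.18. The groups overlapped in each of these series. At 300 ng both CTX 4h arrays were at 10.49, within the native range of 8.71 to 10.67 (median 10.08). Differences by set were 0.41 ± 0.27 (SE, 1-series), 0.60 ± 0.32 (SE, 8-series), 0.26 ± 0.25 (SE, 9-series) and 0.50 ± 0.36 (SE, 300 ng). Of 31 CTX 4h arrays, 23 lay above the native median.

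Fkbp5 encodes an immunophilin that binds the HSP90 complex of the receptor and lowers its hormone affinity, a feedback on the hormone's own signal. Its log2 fold change was 0.47 ± 0.19 (SE; limma adjusted p = 0.163), with means of 9.94 ± 0.62 (SD, n = 31) and 9.61 ± 0.69 (SD, n = 32). In the 1-series its CTX 4h arrays ran from 8.23 to 10.45 (median 9.64) and native ones from 7.75 to 9.91 (median 9.43). In the 8-series CTX 4h arrays were at 8.95 to 10.83 (median 10.11), with native arrays at 8.67, 9.85 and 9.90. The spread within each group was wider than the distance between the groups. In the 9-series CTX 4h arrays lay at 9.18 to 11.21 (median 10.21), and native ones at 8.35, 9.65, 9.83, 10.31 and 10.35. At 300 ng they were at 9.79 and 10.04, close to the native median of 9.83. The value 8.35 is native replicate 8, 1 of the 2 arrays that stood apart.

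Per1, a repressor in the core circadian clock that glucocorticoids and cAMP also induce, had a log2 fold change of 0.32 ± 0.15 (SE; limma adjusted p = 0.252). Its means were 8.98 ± 0.58 (SD, n = 31) and 8.64 ± 0.45 (SD, n = 32), and 24 of 31 CTX 4h arrays lay above the native median. CTX 4h minus native was 0.55 ± 0.29 (SE) in the 1-series and 0.59 ± 0.34 (SE) in the 8-series, but -0.07 ± 0.27 (SE) in the 9-series. In the 8-series 8 of 9 CTX 4h arrays were above every native array, the latter at 8.02, 8.43 and 8.58. In the 9-series the CTX 4h arrays spread from 8.02 to 10.09 and took in the whole native range of 8.33 to 9.81. The 300 ng CTX 4h arrays were at 8.80 and 9.27, against a native median of 8.45 and a range of 8.14 to 9.79.

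Klf9 and Zbtb16 encode zinc-finger transcription factors; Zbtb16, also called PLZF, directs innate-like lymphocytes. Klf9 showed the smallest difference of the 8, with a log2 fold change of 0.19 ± 0.15 (SE; limma adjusted p = 0.512). It was higher in CTX 4h in the 3 100 ng series, by 0.44 ± 0.27, 0.46 ± 0.33 and 0.35 ± 0.26 (SE), and lower at 300 ng, by -0.41 ± 0.37 (SE). Both CTX 4h arrays of 300 ng, at 8.08 and 8.57, lay below the native median of 8.58, while native replicate 19 held the highest value of all arrays, 10.31. Zbtb16 had a log2 fold change of 0.49 ± 0.24 (SE; limma adjusted p = 0.264), and 28 of 31 CTX 4h arrays lay above the native median. In the 8-series all 9 CTX 4h arrays, from 7.58 to 8.20, were above the 3 native arrays, at 6.79, 7.15 and 7.20. That difference of 0.90 ± 0.53 (SE) did not pass (limma adjusted p = 0.99999). In the 9-series the 3 highest CTX 4h arrays were at 9.41, 9.64 and 9.98. A native array at 9.76 stood among them, and another at 8.94 stood below them and above the remaining CTX 4h arrays. Native replicate 19 was again the highest of all, at 11.07 against 9.98 for the next array.

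Sgk1 encodes a kinase that acts on ion transport and survival downstream of PI3K. Its log2 fold change was 0.29 ± 0.14 (SE; limma adjusted p = 0.276). The differences were 0.23, 0.40 and 0.41 in the 1-, 8- and 9-series and 0.26 at 300 ng, with SE of 0.27, 0.33, 0.26 and 0.37. In the 1- and 8-series no CTX 4h array exceeded the highest native array (9.33 and 9.38). Sgk1 was positive in all 4 sets, but each set's value was within 2 SE of zero.

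Pik3ip1 encodes a membrane inhibitor of PI3K, and Txnip an inhibitor of thioredoxin and of glucose uptake. Pik3ip1 had a log2 fold change of 0.23 ± 0.14 (SE; limma adjusted p = 0.402). It was higher by 0.63 ± 0.27 (SE) in the 1-series, the only member and set with an unadjusted p under 0.05 (0.0234; limma adjusted p = 0.9998). Its difference was 0.35 ± 0.32 (SE) in the 8-series, -0.13 ± 0.25 (SE) in the 9-series and -0.08 ± 0.36 (SE) at 300 ng. Txnip had a log2 fold change of 0.44 ± 0.15 (SE; limma adjusted p = 0.096), with means of 11.47 ± 0.53 (SD, n = 31) and 11.12 ± 0.54 (SD, n = 32). In the 8-series 7 of 9 CTX 4h arrays, which ran from 10.89 to 11.98, were above the native arrays at 10.72, 11.03 and 11.30. In the 9-series CTX 4h arrays spread from 10.42 to 12.25, while the 5 native arrays stayed between 11.10 and 11.64. Txnip passed without native replicate 19, its highest array at 12.88 (adjusted p = 0.0484), and did not pass in the other 62 fits without 1 array.

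**Figure D2:**
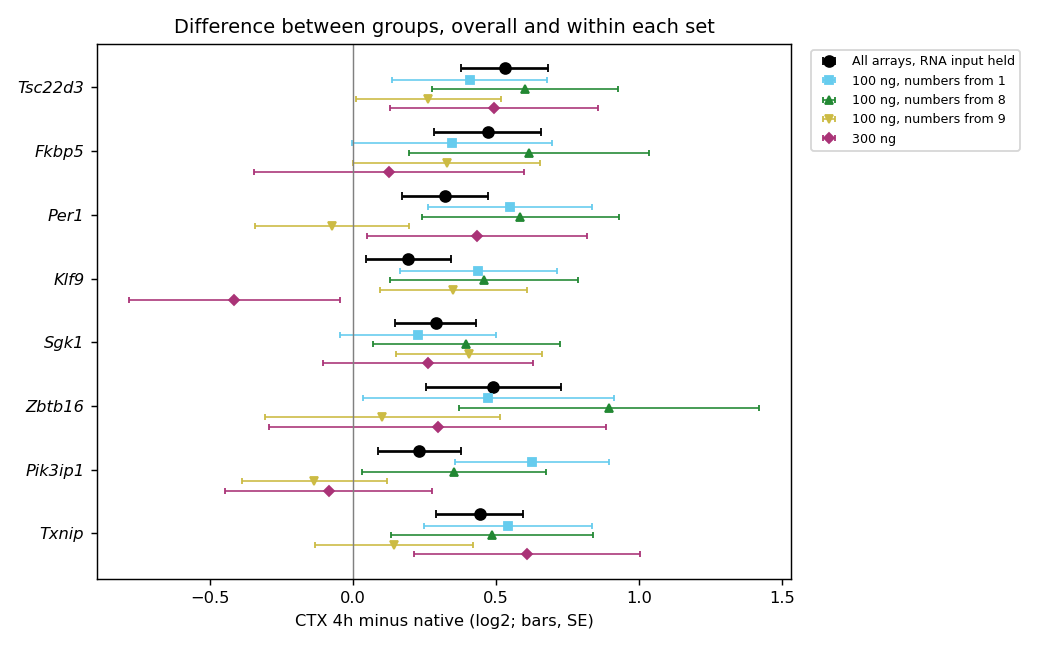
CTX 4h minus native (log2, bars are SE) for each gene, over all arrays with RNA input held (black) and within each of the 4 sets (coloured). The black points lie between 0.19 and 0.53, and the values below 0 are Per1 and Pik3ip1 in the 9-series and Klf9 and Pik3ip1 at 300 ng.

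By set, all 8 members were positive in the 1-series and the 8-series, and 6 of 8 in the 9-series and at 300 ng. Their medians were 0.46, 0.54, 0.20 and 0.28, against 0.00, -0.01, 0.01 and -0.06 for all genes. No member passed within any set (limma, adjusted p), where 0.01%, 0%, 0% and 0.687% of genes were higher, and at an unadjusted p under 0.05 the counts were 1, 0, 0 and 0, where 0.802%, 1.01%, 4.58% and 4.96% of genes were higher. A test of whether the difference depended on RNA input passed for no member (limma interaction, 0 also at an unadjusted p under 0.05; 0.0201% and 5.47% of genes passed). Its largest value was for Klf9, at -0.72 ± 0.41 (SE, 300 minus 100 ng). Among native arrays, no member's difference between 300 and 100 ng passed the test (limma; 0.135% of genes were higher and 0.015% lower at 300 ng, 0.15% in all), and 1 did at an unadjusted p under 0.05. That member was Tsc22d3, higher by 0.42 ± 0.18 (SE) at 300 ng, where most arrays are native.

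Markers of other cells and further scores moved with the groups. In CTX 4h, 2 of 13 macrophage, 4 of 11 stromal and endothelial, 2 of 9 adipocyte and 2 of 9 salivary gland markers were higher, as were 30 of 51 small nucleolar RNAs and 9 of 17 immediate early genes. Lower was 1 of 12 T and NK cell markers (Ncr1). Of all genes, 1.41% were higher and 1.26% lower. The mean macrophage marker level ran from 7.48 to 9.63 in CTX 4h and from 7.79 to 8.70 in native arrays. With macrophage and stromal scores in the model, Tsc22d3 had a log2 fold change of 0.50 (limma adjusted p = 0.167) and Txnip 0.30 (0.396). With the immediate early gene score, Per1, Pik3ip1 and Txnip had values of 0.01, 0.02 and 0.02, while Tsc22d3 was at 0.40 (adjusted p = 0.432) and Fkbp5 at 0.48 (0.462). The small nucleolar RNA score was lower on every 1-series array of both groups, at -1.65 to -0.96, than on any other array. The lowest of the others was at -0.82. The model with RNA input held has no term for series, and the part of this shift in the 30 small nucleolar RNAs called was not tested. With the small nucleolar RNA score, which thus also carries the series, Tsc22d3 was at 0.31 (0.579) and Klf9 at 0.39 (0.42). The part of these cells and scores in the members' differences was not tested beyond these values.

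Other genes known to be glucocorticoid-induced included several with larger differences. Of 37 listed and measured, 11 rose and 0 fell, where 1.41% of all genes were higher, and the list median was 0.34. At an unadjusted p under 0.05, 24 were higher and 0 lower, where 7.62% of all genes were higher. The 11 are named next. They were the metallothionein genes Mt2 (1.63 ± 0.30, SE) and Mt1 (1.12 ± 0.26, SE), the phosphatase gene Dusp1 (1.10 ± 0.19, SE), the mTORC1 inhibitor gene Ddit4 (0.96 ± 0.16, SE) and the ERBB inhibitor gene Errfi1 (0.88 ± 0.19, SE). Smaller rises were those of the GTPase gene Rhob (0.68), the death gene Bcl2l11 (0.64), the thiamine transporter gene Slc19a2 (0.54), the factor genes Cebpb (0.50) and Cebpd (0.42), and Ctla2b (0.42). Limma adjusted p-values of the 11 ran from 1.91e-04 to 0.035. Il7r (-0.51 ± 0.36, SE) and Bcl6 (-0.28 ± 0.19, SE), which are also FOXO targets, had values below 0 and did not pass.

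Of these 11 genes, 5 also passed in the 100 ng arrays alone (Ddit4, Dusp1, Cebpb, Mt1 and Mt2), where 0.15% of genes were higher. With the 4 sets held 9 passed (0.722% of genes), and all 11 did without native replicates 8 and 19 (4.2% of genes). With macrophage and stromal scores 1 passed (Ddit4), with the small nucleolar RNA score 1 (Dusp1) and with the immediate early gene score 0, all still with positive values. In these fits 0.11%, 0.12% and 0.0351% of all genes were higher, in the same order. The list shares 9 genes with the other lists, Dusp1 and Zfp36 of them with the immediate early genes.

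**Figure D3:**
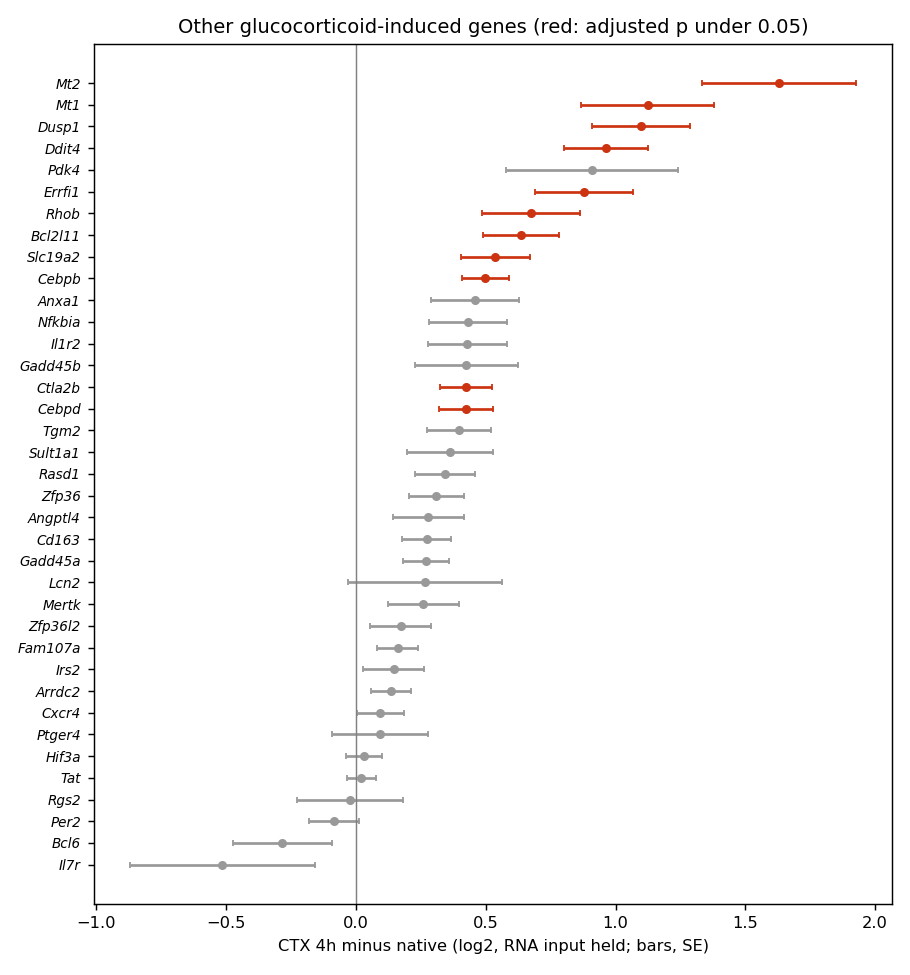
CTX 4h minus native (log2, RNA input held, bars are SE) for the 37 other glucocorticoid-induced genes; red marks an adjusted p under 0.05. Values run from -0.51 (Il7r) to 1.63 (Mt2), and 33 of 37 are above 0.

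Among inflammatory genes that glucocorticoids are known to repress, none fell, where 1.26% of all genes were lower and 1.41% higher. Of 13 measured, 5 rose and 0 fell, namely Ccl2 (1.33 ± 0.27, SE), Ccl3 (1.06 ± 0.27, SE), Il6 (0.81 ± 0.21, SE), Ptgs2 (0.76 ± 0.15, SE) and Il1b (0.74 ± 0.21, SE). None of the 5 passed in the 100 ng arrays alone, where 0 of 13 passed and the list median was 0.08 against 0.23 over all arrays. Of 15 genes for the receptor, its cochaperones and hormone-converting enzymes, none passed and the median was -0.10; at an unadjusted p under 0.05, 0 were higher and 1 lower (Ncoa2, -0.27 ± 0.11, SE). The next smallest p-values were those of Nr3c2 (-0.11), Ncoa1 (-0.17) and Ptges3 (-0.17). Of 16 circadian clock genes 2 rose, Nfil3 (0.45 ± 0.12, SE) and Tef (0.24 ± 0.06, SE), and 0 fell, with Per3 at -0.23 and Rora at 0.22. Neither call was made in the 100 ng arrays alone, with the 4 sets held or with macrophage and stromal scores (0 of 16 each), and 1 was made with a common median. Neither Per2 (-0.08) nor Per3 shared the sign of Per1.

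The glucose-sensing and FOXO lists, to which Txnip and Pik3ip1 are linked, gave no calls. Of 8 MondoA-linked genes none passed (limma; 1 higher and 1 lower at an unadjusted p under 0.05), with Mlx at -0.34 ± 0.12 (SE), Arrdc3 at 0.32 ± 0.14 (SE), Mlxipl at 0.18 and Hk2 at -0.18. Of 18 FOXO targets none passed (2 higher and 2 lower at an unadjusted p under 0.05), with Gadd45a at 0.27 ± 0.09 (SE), Sesn1 at 0.35 ± 0.17 (SE), Rag2 at -0.84 ± 0.35 (SE) and Ccng2 at -0.32 ± 0.14 (SE). For scale, 8 of 19 p53 targets rose, from Phlda3 (0.86 ± 0.19, SE) and Plk2 (0.76 ± 0.20, SE) through Sesn2, Ercc5, Pmaip1, Bbc3 and Dcxr to Eda2r (0.28 ± 0.07, SE). The immediate early genes that rose were Dusp1, Jun (0.83 ± 0.14, SE), Atf3 (0.63 ± 0.15, SE), Ier3, Egr1, Fos, Junb, Ier2 and Klf4 (0.27 ± 0.06, SE). In the 100 ng arrays alone 0 of 19 p53 targets and 3 of 17 immediate early genes were higher, and with macrophage and stromal scores 0 and 2. Of all genes, 1.41% were higher over all arrays, 0.15% in the 100 ng arrays alone and 0.11% with those scores.

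The members varied widely between lymphomas. After the mean of each group in each of the 4 sets was removed, their SDs ran from 0.467 (Pik3ip1) to 0.766 (Zbtb16). The median over all genes was 0.264, and 88.8% to 98.1% of genes had a smaller SD. For 7 of the 8 members this SD was larger than the difference between the groups in the model with RNA input held. For Tsc22d3 it was 0.470 against a difference of 0.53. Native replicate 10 was the lowest array for Tsc22d3 (8.38), Fkbp5 (7.75), Per1 (7.96) and Pik3ip1 (7.40) alike. CTX 4h replicate 16 was the highest for Fkbp5 (11.21) and Per1 (10.09) and the next to highest for Tsc22d3 (10.98) and Zbtb16 (9.98).

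Relations between the genes were measured within each group after removing set means, over 28 pairs in 2 groups (56 relations; 100000 permutations within sets, two-sided, Benjamini-Hochberg adjusted over the 56). All 28 correlations were positive among CTX 4h arrays, with r from 0.06 to 0.76 (median 0.42), and 26 of 28 among native arrays, with r from -0.04 to 0.79 (median 0.40). By both Pearson's r and Spearman's rho, 11 pairs passed in CTX 4h, 10 in native and 5 in both. A regression of each gene of the array on each member, with group and set held, called 16 of 28 pairs in both directions, all positive. The share of all genes related positively to a member in that fit was 1.86% for Tsc22d3, 2.42% for Fkbp5, 0.13% for Per1, 2.1% for Klf9, 4.02% for Sgk1, 4.45% for Zbtb16, 5.72% for Pik3ip1 and 9.23% for Txnip. The share related negatively was 0.782%, 0.632%, 0.01%, 1.09%, 0.963%, 1.95%, 4.72% and 14.1%, in the same order.

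**Figure D4:**
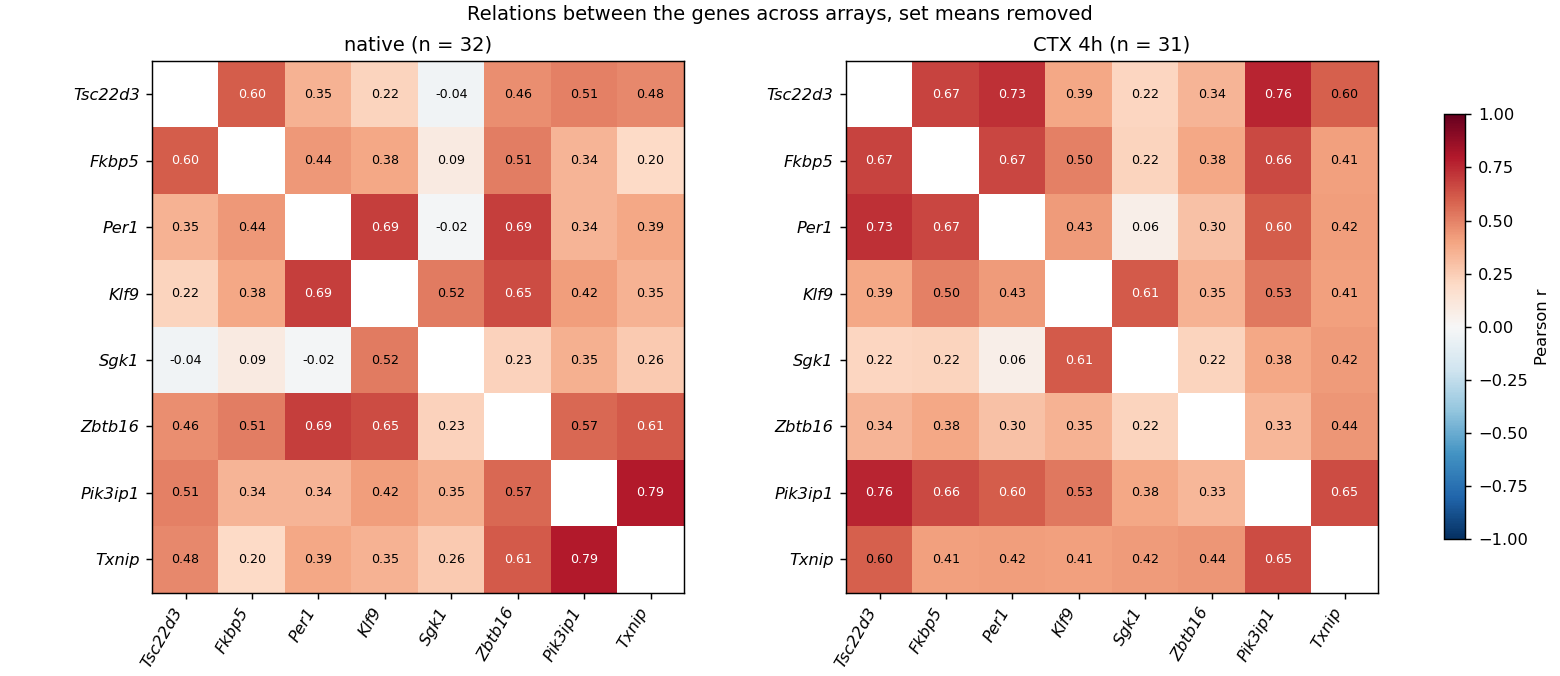
Pearson r of each pair of the 8 genes across 32 native arrays (left) and 31 CTX 4h arrays (right), each value minus the mean of its set; red is positive and blue negative. Nearly all cells are red, and the palest row and column are those of Sgk1, apart from its cell with Klf9 (0.52 and 0.61).

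Tsc22d3 was related most strongly to Pik3ip1 and Per1 among CTX 4h arrays. For Tsc22d3 and Pik3ip1, r was 0.76 (permutation p = 1e-05, the smallest these permutations can give, adjusted 2.80e-04) and rho 0.76 (adjusted p = 5.60e-04), and r was 0.74 without the 2 arrays farthest from the median of Tsc22d3. By series r was 0.87, 0.22 and 0.88 in the 1-, 8- and 9-series. The 8-series thus showed little of this relation. Among native arrays r was 0.51 (permutation p = 0.00611, adjusted 0.0163) and rho 0.48 (adjusted 0.0256), and 0.37 without the 2 farthest arrays (p = 0.0577), so this relation rests in part on those arrays. For Tsc22d3 and Per1, r was 0.73 in CTX 4h (permutation p = 2e-05, adjusted 3.73e-04), rho 0.77 (adjusted 5.60e-04), and 0.77 without 2 arrays. In native arrays r was 0.35 and rho 0.32 (adjusted permutation p = 0.0896 and 0.148), and the difference between the groups was not tested.

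Tsc22d3 and Fkbp5, the classic pair of receptor targets, were related in both groups. In CTX 4h r was 0.67 (permutation p = 1e-04, adjusted 0.00123), rho 0.67 (adjusted 0.00233), and r without 2 arrays 0.68. In native arrays r was 0.60 (permutation p = 6.60e-04, adjusted 0.00308), rho 0.51 (adjusted 0.0165), and r without 2 arrays 0.51. Within CTX 4h series r was 0.96, 0.16 and 0.82 (1-, 8- and 9-series), and in the native 1-series and 300 ng arrays 0.95 and 0.36. The other native sets held too few arrays for a value. Pik3ip1 and Txnip had r of 0.79 in native arrays (permutation p = 1e-05, adjusted 2.80e-04; rho 0.69, adjusted 0.00131; r without 2 arrays 0.66). In CTX 4h r was 0.65 (permutation p = 5.30e-04, adjusted 0.0027; rho 0.60, adjusted 0.00767; r without 2 arrays 0.57). In the native 100 ng arrays alone r was 0.43 (permutation p = 0.17), and by set it was 0.65 in the native 1-series, 0.92 in the native 300 ng arrays and 0.71, 0.15 and 0.75 in the CTX 4h series.

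Sgk1 stood outside most of these relations. With Tsc22d3 its r was 0.22 in CTX 4h and -0.04 in native arrays, and with Per1 0.06 and -0.02. Its relation to Klf9 passed in both groups, with r of 0.61 in CTX 4h (permutation p = 4.40e-04, adjusted 0.0027; rho 0.56, adjusted 0.00983; r without 2 arrays 0.52) and 0.52 in native arrays (permutation p = 5.10e-04, adjusted 0.0027; rho 0.46, adjusted 0.036; r without 2 arrays 0.49). By series the CTX 4h values were 0.77, 0.16 and 0.84. Of its 7 pairs, Sgk1 had 1 called by regression, while Per1 and Txnip had 3 each and the other members 5 each.

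Many of the pair calls depended on native replicate 19. Of the 28 pairs, 16 passed over all arrays, 8 without that array, 8 without replicates 8 and 19, 13 without replicate 8 and 6 in the 100 ng arrays alone, and 18 passed in at least 1 of 10 settings. In all of these settings 5 pairs passed: Tsc22d3 with Fkbp5, with Pik3ip1 and with Txnip, Pik3ip1 with Txnip, and Klf9 with Sgk1. Native relations of Per1 with Klf9 (r = 0.69) and with Zbtb16 (r = 0.69) fell to 0.54 and 0.42 without the 2 arrays farthest from the median of Per1. Replicate 19 was the highest array for Klf9, Zbtb16, Pik3ip1 (9.79) and Txnip and the next to highest for Fkbp5 (10.94), and had the lowest Myc level. With a T and NK cell score in the model 16 pairs passed, and with macrophage and stromal scores 15.

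Fkbp5 followed the level of Nr3c1, the gene of the glucocorticoid receptor itself. Over 16 relations of members with Nr3c1, that of Fkbp5 had r of 0.70 in CTX 4h (permutation p = 1e-05, adjusted 1.60e-04; rho 0.72, adjusted 8e-05) and 0.69 in native arrays (permutation p = 6e-05, adjusted 4.80e-04; rho 0.73, adjusted 8e-05). Without the 2 arrays farthest from the median of Fkbp5, r was 0.74 and 0.67. By set r was 0.53, 0.81 and 0.79 in the CTX 4h series, 0.63 in the native 1-series and 0.59 in the native 300 ng arrays, so it was positive in each set with enough arrays. Per1, Klf9 and Pik3ip1 passed with Nr3c1 in CTX 4h (r = 0.48, 0.47 and 0.58; adjusted permutation p = 0.0298, 0.0359 and 0.00341) and not in native arrays (r = -0.03, 0.11 and -0.03), a difference that was not tested. Tsc22d3 did not pass in either group (r = 0.35 and 0.27; adjusted permutation p = 0.165 and 0.295). In the regression over all genes, without native replicates 8 and 19, Fkbp5 was the only member to pass with Nr3c1 (limma adjusted p = 1.29e-05, range over the others 0.0562 to 0.826).

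**Figure D5:**
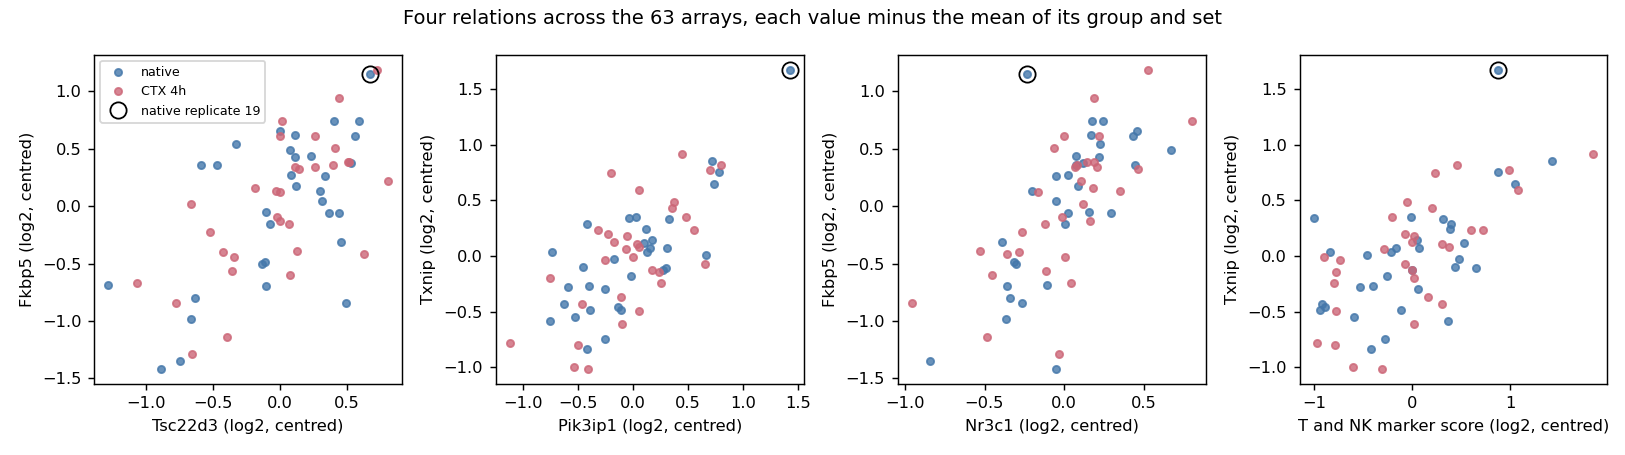
Pairs of values across the 63 arrays (log2, each minus the mean of its group and set), native in blue and CTX 4h in red, for Fkbp5 against Tsc22d3, Txnip against Pik3ip1, Fkbp5 against Nr3c1 and Txnip against the T and NK marker score. The circled array, native replicate 19, lies at or near the upper edge of each panel and apart from the other points in those of Txnip and of Nr3c1.

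The nearest genes by r over 63 arrays, with group-by-set means removed, are given as a description. For Tsc22d3 they were Ddit4 (0.72), the histone demethylase gene Kdm7a (0.72) and the kinase gene Sik1 (0.67), and for Fkbp5 they were E230001N04Rik, Nr3c1 and Mtmr10 (0.69 each). For Per1 they were Pex11a (0.67), the RNA-decay gene Zfp36l2 (0.66) and the stress gene Sesn1 (0.65), and for Klf9 Dock9 (0.72), Apobec3 (0.72) and Pex11a (0.69). Pex11a, of the peroxisome membrane, thus stood near both Per1 and Klf9. The nearest to Sgk1 were Acvr1b (0.75), Sigirr (0.74) and Farp1 (0.73), and to Pik3ip1 Cyp4f13 (0.81), Txnip (0.73) and Fcrl1 (0.72). Txnip had Klf6 (0.80), Crebrf (0.80) and Xdh (0.78). For Zbtb16 they were Fmo2 (0.71), Tcn2 (0.70) and C7 (0.68), which were 0.58, 0.54 and 0.57 without native replicates 8 and 19, the largest drop among the 8 members.

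Some genes of the other lists followed most of the members. The glucocorticoid-induced gene Zfp36l2 was related positively to 7 of the 8 members in the regression (adjusted p under 0.05) and to 6 without native replicates 8 and 19, and Sesn1, a FOXO and p53 target, to 7 and 5. Among further glucocorticoid-induced genes, Ddit4 was related to 6 and 3, Arrdc2 to 6 and 4, and Irs2, an insulin receptor substrate that is also a FOXO target, to 6 and 3. Sgk1 was among the members related to Irs2 (r = 0.56, limma adjusted p = 9.19e-04), and not among those related to Zfp36l2, Sesn1, Ddit4 or Arrdc2. Of the 37 other glucocorticoid-induced genes, 18 were positive with Txnip, 16 with Zbtb16, 13 with Pik3ip1, 7 with Sgk1, 6 with Klf9, 5 with Fkbp5 and 4 each with Tsc22d3 and Per1, and none was negative with any member. The shares of all genes, in that order, were 9.23%, 4.45%, 5.72%, 4.02%, 2.1%, 2.42%, 1.86% and 0.13%. Without native replicates 8 and 19 the counts were 9, 4, 8, 6, 5, 3, 3 and 2, where the shares of all genes were 6.8%, 0.547%, 3.01%, 4.52%, 4.7%, 1.57%, 1.5% and 0.241%. The 16 of Zbtb16 became 4 without these arrays.

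Among the 18 FOXO targets, Tsc22d3 was related positively to 5 and negatively to 2, where the shares of all genes were 1.86% and 0.782%. Fkbp5 was related to 4 and 2, where the shares were 2.42% and 0.632%. Without native replicates 8 and 19 the counts were 4 and 2 for Tsc22d3, and 1 and 2 for Fkbp5. The positive shares of all genes were then 1.5% and 1.57%, and the negative shares were not counted. The positive genes were Sesn1, Cdkn1b, Klf2, S1pr1 and Cited2 for Tsc22d3 and Sesn1, Irs2, Foxo3 and Cited2 for Fkbp5. The negative ones were in both cases Rag1 and Rag2, which encode the recombinase of immature B cells. With Tsc22d3 their r was -0.44 and -0.46 (limma adjusted p = 0.0277 and 0.0194), and with Fkbp5 -0.54 and -0.53 (0.00282 and 0.00359). Both genes passed as negative with these members also without native replicates 8 and 19. Of the 9 B-cell markers, 2 were positive with Tsc22d3 and 0 with Fkbp5, and none was negative with either.

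Klf9 was related positively to markers of more than 1 cell type. Of 9 neutrophil markers 5 were positive with it, and of 9 B-cell markers 3. Without native replicates 8 and 19 these counts were 7 and 5. The share of all genes positive with Klf9 was then 4.7%, against 2.1% over all arrays. In that fit 2 of 12 T and NK cell markers were negative, and the share of all genes negative with Klf9 was not counted. The mean neutrophil marker level ran from 6.18 to 10.06 in CTX 4h and from 5.53 to 10.22 in native arrays, and 0 of 9 markers passed between the groups (limma adjusted p, 0 also at an unadjusted p under 0.05). Of 16 clock genes, Klf9 was related positively to 3, Nr1d2 (r = 0.59), Cry2 (r = 0.55) and Nr1d1 (r = 0.53). Without native replicates 8 and 19 it was related positively to Cry2, Nr1d2, Tef and Clock and negatively to Nfil3, and Nr1d1 did not pass.

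Several markers of T and NK cells, which are other cells of the lymph node, were related to Txnip and to Pik3ip1. Of 12 such markers, 9 were positive with Txnip and 7 with Pik3ip1, against 2 with Zbtb16 and 0 with each of the other 5 members. The shares of all genes positive with Txnip, Pik3ip1 and Zbtb16 were 9.23%, 5.72% and 4.45%. Without native replicates 8 and 19 the counts were 8, 4 and 0, and the shares 6.8%, 3.01% and 0.547%. Txnip was also positive with 6 of 11 stromal and endothelial, 3 of 13 macrophage and 3 of 9 adipocyte markers (2, 1 and 1 without these arrays), and Pik3ip1 with 7 of 9 salivary gland markers (4 without them). The macrophage and adipocyte counts without these arrays are close to the share of all genes, 6.8%. With Txnip, r was 0.70 for Cd8a, 0.68 for Cd3e and Cd3d, and 0.62 for Nkg7. The mean level of the 12 markers ran from 6.13 to 9.37 in CTX 4h (median 7.29) and from 6.40 to 9.37 in native arrays (median 7.60). Among 112 relations of members with marker and list scores, Txnip with the T and NK score had r of 0.68 in CTX 4h and 0.62 in native arrays (permutation p = 2e-04 and 2.80e-04, adjusted 0.0157 each), which by rho, 0.65 and 0.56, did not pass (adjusted 0.0616 and 0.102). Without the 2 arrays farthest in the score r was 0.60 and 0.54. By set r was 0.85, 0.10 and 0.75 in the CTX 4h series, 0.97 in the native 1-series and 0.63 in the native 300 ng arrays. Pik3ip1 with the T and NK score passed in neither group. Its r was 0.41 in CTX 4h and 0.54 in native arrays (adjusted permutation p = 0.427 and 0.0717), and -0.08 in the CTX 4h 8-series. No relation of a member with a score passed by both r and rho. With the T and NK score in the model, Txnip rose in CTX 4h by 0.60 (limma adjusted p = 0.00241) and Tsc22d3 by 0.54 (0.0268), and 2.88% of genes were higher; the part of these cells in the level of Txnip was otherwise not tested.

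Txnip ran against the chaperones of the receptor complex and along with its own family. Of the 15 genes of the receptor list, 7 were negative with Txnip, where 14.1% of all genes were negative, among them Stip1 (r = -0.47), Hsp90aa1 (-0.44) and Fkbp4 (-0.43). Without native replicates 8 and 19, 4 passed (Stip1, Hsp90aa1, Ppid and Bag1), while Fkbp4, Ptges3 and Dnajb1 did not. The share of all genes negative with Txnip was not counted in that fit. The steroid-activating enzyme gene Hsd11b1 was positive with it (r = 0.69). Arrdc4, another arrestin-family target of MondoA, had r of 0.71 with Txnip, 0.65 with Pik3ip1, 0.52 with Zbtb16 and 0.45 with Sgk1, of which that with Zbtb16 did not pass without native replicates 8 and 19. Of the 8 MondoA-linked genes, 3 were positive with Txnip (Arrdc4, Arrdc3 at 0.52 and Mlxipl at 0.35) and 2 negative (Mlx at -0.41 and Hk2, a hexokinase gene of glycolysis, at -0.40), and Mlxipl did not pass without these arrays. Of the 18 FOXO targets, 10 were positive with Txnip and 10 with Pik3ip1, where 9.23% and 5.72% of all genes were positive. Without native replicates 8 and 19, 7 were positive with each, where the shares were 6.8% and 3.01%. In that fit 1 was negative with Txnip, for which the share of all genes was not counted.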

How the data were processed

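The authors' deposited values are log2 expression values per probe set of an Affymetrix array; Partek 6.5 and RMA, which corrects background, normalizes and summarises probes, are named in the submitters' processing notes. The sources used here do not say which arrays were normalized together. Scanner files were not used here. RMA compresses differences of dim genes, and the number of arrays limits the precision.

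The platform annotation names 1 gene for 21789 of the 35557 probe sets, several for 1621 and none for 12147; of the first, 21698 matched the RefSeq table of GRCm38.p6. Each of 19938 genes was its single-symbol probe set of highest mean. Groups came from the treatment label. Models were limma 3.58.1 in R 4.3.3 (treatment and RNA input; treatment within sets; every gene on each member with group and set held), two-sided, with Benjamini-Hochberg adjusted p under 0.05. Correlations used 100000 permutations within sets. On simulated data with this design over 19938 genes, the first model called 81 of 100 genes changed by 0.5 (log2), 98 of 100 changed by 1 and 2 of 19738 unchanged genes. The simulated noise was normal and independent for each gene, without series shifts, arrays that stand apart or relations between genes. These counts therefore do not measure the error rates of the model on the real arrays. Named genes are the members, list genes past the threshold or with the 4 smallest p, and the 3 nearest genes of each member; those named for relations with several members, or as markers, were chosen after their values were seen. Sequences are from RefSeq. Members, lists and settings were chosen with earlier results of these data known. Figures were drawn with matplotlib 3.10.9.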

Additional observations from a re-analysis of the deposited data

Results flagged for a closer look

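Native replicate 10 was far below the other 6 native arrays of the 1-series in Tsc22d3, at 8.38 on the log2 scale against 9.16 for the next lowest. It was the only such case among 32 groups of 5 to 9 arrays examined for the 8 genes, and chance marks about 1 in 20 groups. The same array was the lowest for Fkbp5, Per1 and Pik3ip1 as well.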

How the results depend on the processing

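Each member kept a positive difference in all 63 fits without 1 array and in 19 other settings, except that Klf9 and Pik3ip1 were at -0.41 and -0.084 in the 300 ng arrays alone, which hold 2 CTX 4h arrays. The number of members called was 0 without the RNA input term, in the 100 ng or 300 ng arrays alone, with a term for the leading digit, with the 4 sets, with a common median and with the macrophage and stromal, adipocyte, small nucleolar RNA or immediate early gene scores. It was 2 without native replicates 8 and 19 and with the T and NK score, and 6 with array weights. Without single arrays it was 0 to 2. Genes called over the whole array, 532 in the model described, numbered 301 (no RNA input term), 50 (100 ng alone), 352 (300 ng alone), 208 (first digit), 210 (sets), 932 (all probe sets), 5828 (array weights), 2495 (without native replicates 8 and 19), 74 (macrophage and stromal scores), 1057 (T and NK score), 55 (adipocyte score), 25 (small nucleolar RNA score) and 36 (immediate early score), and 241 to 1585 without single arrays. The cause of these changes was not tested. Pairs of members called by regression, 16 in all, were 6 in the 100 ng arrays alone and 8 without replicates 8 and 19, and 8 to 13 without either of them; the single removals and the T and NK score were added after seeing the data. Genes with an interaction with RNA input numbered 4, or 9 with a common median. Genes that differed between 300 and 100 ng among native arrays, where input and series overlap, numbered 30. With a common median they numbered 8, and without replicates 8 and 19 they numbered 191. No paired analysis was possible because each array has its own lymphoma number and the replicate numbers pair nothing. Confidence in any CTX 4h difference is limited by the 2 CTX 4h arrays at 300 ng and the 3 native arrays of the 8-series.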
